A study of Homo sapiens with 6 samples.

Results

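DKO cells, in which MRCKα and MRCKβ were targeted together, were compared with vector control cells through 2 DKO and 2 vector libraries out of the 6 RNA libraries of the series. The cells were MDA-MB-231, a human triple-negative breast cancer line, taken from subconfluent cultures. Vector control carried the empty lentiviral vector lentiCRISPRv2, with vector 1 and vector 2 coming from separate transductions. DKO carried guides against CDC42BPA, which encodes MRCKα, and against CDC42BPB, which encodes MRCKβ, with one set made from the guide 1 gRNAs and another from the guide 2 gRNAs. The labels do not say which set is DKO 1. All cells had passed drug selection with puromycin or blasticidin, and they were pools of stably transduced cells without clone picking, so that edited and unedited alleles can stand side by side in a library. The lentivirus was produced in HEK293T cells. MRCKα KO and MRCKβ KO have 1 library each and are given below only as values beside the named genes.

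The genes described were chosen by their own values. Each had to have 50 or more expected counts, which are estimated reads, in both libraries of vector or in both libraries of DKO. Each also had to have both DKO values above, or both below, both vector values in FPKM, that is reads per kilobase of transcript scaled to the total reads of the library. Of the 17064 genes of the table, 10964 met the count minimum, and 3276 of these had no overlap between the groups. Both DKO values lay above both vector values for 1920 genes, which is 17.5% of the 10964 genes, and below them for 1356 genes, which is 12.4%. The other 7688 genes overlapped. The count minimum was met only in DKO by 205 genes, of which 77 were separated upward. It was met only in vector by 122 genes, of which 53 were separated downward. Low genes that differ between the groups thus enter more easily through the group where they are higher. With 2 libraries in each group, many genes part in this way even where the groups do not differ. The 3276 genes are therefore not a count of changed genes. Since these values chose the genes, the differences below are a description, and they were given no test of their own.

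MRCKα and MRCKβ are serine/threonine kinases that bind the small GTPase CDC42 when it is loaded with GTP. They phosphorylate myosin light chain, the myosin phosphatase subunit MYPT1 and LIM kinases, and so raise the contraction of actomyosin under the cell cortex and in the lamella. ROCK kinases act on many of the same substrates downstream of RHOA. In MDA-MB-231 cells, contraction of actomyosin is part of how the cells move through matrix.

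The 4 libraries were of similar depth, with 10349898 to 10657857 expected counts and 12911 to 13036 genes with 10 or more counts each. Markers of the line were present, with VIM, which encodes vimentin, between 1543 and 2052 FPKM, and ESR1, the estrogen receptor gene, at 0.87 FPKM or less. KRT8, an epithelial keratin gene listed as low in the line, was between 138 and 220.1 FPKM. SPARC, listed as a marker of the line, was at 1.22 FPKM or less in each of the 4 libraries. The fibroblast genes DCN and LUM, the endothelial gene CDH5 and the leukocyte gene PTPRC were between 0 and 0.67 FPKM, and the HEK293T marker LIN28B was at 0.02 FPKM or less. PDGFRB, a fibroblast marker, was higher in the libraries numbered 1 (5.9 and 3.15 FPKM in vector 1 and DKO 1) than in those numbered 2 (1.35 and 1.14 FPKM). Other listed markers were present at low levels, with the fibroblast gene COL1A1 between 2.27 and 3.26 FPKM, the endothelial genes PECAM1 between 0.93 and 1.88 and KDR between 1.26 and 2.04, and the leukocyte gene LYZ between 5.63 and 8.87. CD68, listed as a leukocyte marker, was between 68.6 and 98.5 FPKM. Their part in the results was not tested.

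Most of the separated genes differed by little. The gap between the groups, taken as the lowest value of the higher group divided by the highest value of the lower group, exceeded 1 by less than 5% for 842 of the 1920 higher and 675 of the 1356 lower genes. The median gap was 1.06 for the higher genes and 1.05 for the lower genes. A gap of at least 25% was reached by 106 higher and 61 lower genes, and a gap of at least 1.5-fold by 25 higher and 9 lower genes. A gap of at least 2-fold was found for 5 higher genes and for none of the lower genes. EMD, which encodes the nuclear envelope protein emerin, shows how narrow the edge is, with 41.93 and 47.43 FPKM in vector, against 47.44 and 50.38 FPKM in DKO. VPS52, a gene of endosome to Golgi transport, tied at 22.6 FPKM in vector 2 and DKO 1 and was left out. At the count minimum, EGLN3 was kept with 50 expected counts in each vector library and the readthrough gene FAM47E-STBD1 was left out with 49.65 in the lower of its vector libraries. EMD, VPS52 and FAM47E-STBD1 are named for their place at these limits.

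**Figure D1:**
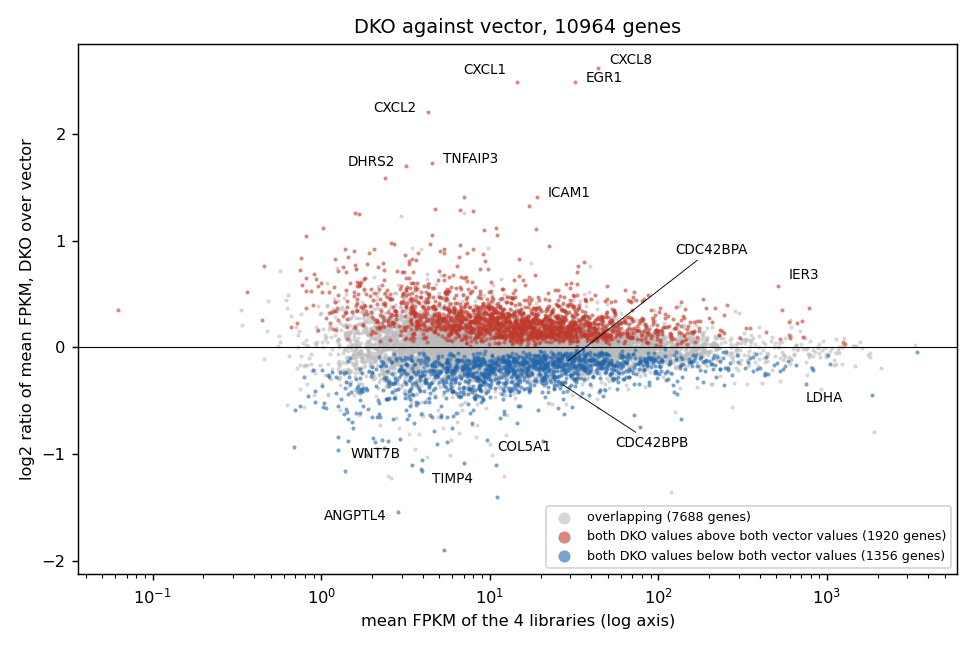
Each of the 10964 genes with 50 or more counts in a group is 1 point, with the mean FPKM of the 4 libraries on a log axis and the log2 ratio of the mean FPKM of DKO to that of vector. The 1920 red and 1356 blue genes had no overlap between the groups and spread over the whole range of expression, with the highest log2 ratio, 2.62, at CXCL8 and the EGR1 and CXCL1 points next to it.

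The separated genes were close to all genes in level, while the lower genes had shorter transcripts in the median. Median FPKM over the 4 libraries was 13.8 for the higher and 14.7 for the lower genes, against 14.3 for all 10964 genes. The transcripts had a median length of 3262 bases for the higher genes, 2900 bases for the lower genes and 3152 bases for all. The median log2 ratio of DKO to vector over all 10964 genes was 0.02. For bulk RNA of this kind, a higher level of an RNA in each cell and a larger share of cells that carry it cannot be told apart.

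Across all genes, edgeR's quasi-likelihood test on the expected counts called 0 of 13123 genes (0%) at an adjusted p under 0.05, with a lowest adjusted p of 1.00 after Benjamini-Hochberg adjustment. At an unadjusted p under 0.05 it had 313 genes (2.39%), 179 of them with the higher and 134 with the lower level in DKO. DESeq2's Wald test called 4 genes, among them ICAM1 and TNFAIP3, both higher in DKO, and edgeR called 5 genes when blocked on the replicate number, namely ICAM1, TNFAIP3, CXCL1, CXCL8 and IL24, all higher. The 2 libraries of a group came from separate transductions and, for DKO, from separate guides, so the spread within a group includes these. The study's own rule drops genes more than 2-fold apart within a group and asks for a 2-fold difference of the means. With a minimum of 10 counts added to it here, the rule left 65 higher and 39 lower genes. With the minimum of 50 counts it left 11 higher genes (0.1% of the 10964) and 3 lower genes (0.0274%). The higher genes were EGR1, TNFAIP3, DHRS2, ICAM1, ATF3, ZNF80, DUSP8, NR1D1, HDAC9, RELB and CLEC2D. The lower genes were EGLN3, TIMP4 and WNT7B.

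The targeted genes come before the others. CDC42BPA had 36.43 FPKM in vector 1, 23.32 in vector 2, 28.31 in DKO 1 and 26.06 in DKO 2, so that both DKO values lay between the vector values. It had 29.43 FPKM in the MRCKα KO library and 34.94 in the MRCKβ KO library. CDC42BPB had 30.28 FPKM in vector 1, 29.11 in vector 2, 23.42 in DKO 1 and 23.47 in DKO 2, with a gap of 1.24 and a log2 fold change of -0.37 (SE 0.11, edgeR). Its level was 27.29 FPKM in MRCKα KO and 25.70 in MRCKβ KO. RNA of both genes was thus still counted in DKO. Small insertions or deletions at a guide site can remove a protein and leave its RNA in place, so these levels neither check nor contradict the labels. At the protein level, the paper reports very efficient deletion in its MDA-MB-231 knockout cells by Western blot, also without clone picking.

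Of the 26 measured genes of the MRCK pathway list, 3 (11.5%) were separated upward, 7 (26.9%) were separated downward and 16 overlapped, beside 17.5% and 12.4% of all genes. The median log2 ratio was -0.05. LIMK1, a kinase that inactivates cofilin and is itself switched on by MRCK, had 23.53 and 22.66 FPKM in vector and 20.54 and 17.67 in DKO. ROCK2, 27.50 and 27.93 FPKM in vector, had 26.48 and 26.29 in DKO. CDC42 itself, with 138.96 and 124.08 FPKM in vector, had 122.54 and 123.24 in DKO. The 4 further genes on the lower side were CDC42BPB, the myosin light chain MYL6, the kinase PAK1 and the phosphatase subunit PPP1CB. On the higher side stood CIT, which encodes citron kinase and had 21.78 and 19.29 FPKM in vector and 23.34 and 23.80 in DKO, with DMPK and EZR at gaps of 1.01 and 1.00. The substrates and relatives MYL9, MYL12A, MYL12B, MYH9, MYH10, MYO18A, PPP1R12A (MYPT1), LIMK2, ROCK1, RHOA and RAC1 overlapped between the groups. MYL12B reached its lowest level, 348.25 FPKM, in DKO 2, whereas DKO 1 had 584.24 FPKM and lay between vector 1 (656.95) and vector 2 (506.65). MYL12A and MYL12B are near-identical genes, so their counts are uncertain. CDC42BPG and LURAP1, also on the list, did not reach 50 counts.

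Immediate early genes, which cells transcribe within minutes of a stimulus and whose products are mostly transcription factors and short-lived regulators, had the highest share of upward members among the lists of 20 or more measured genes. Of 31 measured members, 16 (51.6%) were separated upward and 1 downward, beside 17.5% and 12.4% of all genes. The median log2 ratio of the 31 genes was 0.33. EGR1, a zinc finger transcription factor (gene ID 1958), had the widest gap of all 10964 genes, 3.0. It had 12.49 FPKM in vector 1, 6.81 in vector 2, 37.51 in DKO 1 and 70.82 in DKO 2. Both DKO values were thus above both vector values, and the fitted log2 fold change was 2.46 (SE 0.39, edgeR). The MRCKα KO library had 23.23 FPKM and the MRCKβ KO library 18.11 FPKM, between the vector and the DKO values.

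ATF3, a stress-induced factor of the ATF/CREB family, had 4.56 and 3.15 FPKM in vector and 9.84 and 8.95 in DKO, and 10.96 and 8.85 in the single knockout libraries. SGK1, a serum- and glucocorticoid-induced kinase, had 7.36 and 7.27 FPKM in vector and 11.85 and 12.57 in DKO. In SGK1 the libraries of a group were less than 1 FPKM apart. IER3, an early gene that modulates apoptosis and NF-κB signalling, was abundant, with 449.08 and 371.69 FPKM in vector and 599.68 and 620.48 in DKO. ZFP36, which encodes an RNA-binding protein that speeds the decay of cytokine mRNAs, had 10.88 and 12.09 FPKM in vector and 16.13 and 17.31 in DKO. The SRF gene, whose product drives many early genes, had 47.46 and 40.26 FPKM in vector and 51.47 and 59.09 in DKO. In the MRCKα KO library IER3 (394.79 FPKM) and ZFP36 (11.29 FPKM) lay between the vector values, while SGK1 (11.13 FPKM) and SRF (47.93 FPKM) lay above them. The single downward member was IER5, from 46.54 and 48.30 FPKM in vector to 45.17 and 44.99 in DKO.

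The promoter of EGR1 is shown because its gene had the widest gap and because it holds matches to the CArG box, the sequence that SRF binds. The stretch lies on the plus strand of chromosome 5 of RefSeq's GRCh38.p14 at chr5:138465344-138465435, from 135 to 44 bases before the start of the gene. The capitals mark 2 matches.
EGR1: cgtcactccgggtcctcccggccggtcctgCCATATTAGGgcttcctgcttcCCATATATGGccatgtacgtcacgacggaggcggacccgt
In the 250 bases before the start, a CArG box was found on either strand for 142 of the 9106 genes with a promoter in the RefSeq table (1.56%), for 29 of 1605 genes separated upward (1.81%) and for 18 of 1144 separated downward (1.57%). Where a gene had more than 1 promoter in the table, a match in any of them counted. Among the upward immediate early genes with a promoter in the table, EGR1 and SRF held it, 2 of 14. Overlapping members of the list were not counted. A match of letters is not a site of binding.

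The ERK list held phosphatases and other regulators that limit the pathway, together with genes that it switches on, such as ETV1, ETV4, ETV5 and CCND1. Of 23 measured members 6 (26.1%) were separated upward and 3 (13.0%) downward, beside 17.5% and 12.4% of all genes. The downward members were ETV1, ETV4 and CCND1. DUSP8, a phosphatase that acts on MAP kinases, stood out with 0.71 and 0.58 FPKM in vector and 1.48 and 1.33 in DKO, a gap of 1.87. It met the count minimum only in DKO. ETV5 had 32.60 and 31.96 FPKM in vector and 36.61 and 35.33 in DKO. The cyclin gene CCND1 had 230.29 and 211.06 FPKM in vector and 186.22 and 210.06 in DKO, and its groups barely parted.

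NF-κB is a family of dimeric factors held in the cytoplasm by IκB proteins until a signal releases them. Among its targets are its own inhibitors, chemokines and adhesion molecules. Of 36 measured genes on the list of NF-κB factors and feedback, 18 were separated upward and 2 downward, beside the 17.5% and 12.4% of all genes, and the median log2 ratio was 0.22. ICAM1, the adhesion receptor for leukocyte integrins (gene ID 3383), had 9.21 FPKM in vector 1, 11.66 in vector 2, 25.62 in DKO 1 and 29.90 in DKO 2. Its gap was 2.20 and its log2 fold change 1.39 (SE 0.17, edgeR). The MRCKα KO and MRCKβ KO libraries had 17.12 and 18.46 FPKM. TNFAIP3, which encodes the NF-κB inhibitor A20 (gene ID 7128), had 1.74, 2.47, 5.41 and 8.56 FPKM in the same order of the 4 libraries. Its log2 fold change was 1.73 (SE 0.29, edgeR), and the single knockout libraries had 4.32 and 3.11 FPKM.

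The remaining members with the widest gaps were 3 signalling genes. TRAF1, an adaptor of TNF receptors, had 3.04 and 3.98 FPKM in vector and 5.40 and 7.74 in DKO. IRAK2, a kinase of the interleukin-1 and Toll-like receptor pathway, had 3.46 and 3.68 FPKM in vector and 5.39 and 4.73 in DKO. RELB, a subunit of NF-κB, had 4.23 and 7.52 FPKM in vector and 9.23 and 16.01 in DKO. In RELB the spread within each group was of the same order as the distance between the groups. In MRCKα KO and MRCKβ KO, TRAF1 (3.25 and 3.95 FPKM) and RELB (7.10 and 7.10 FPKM) lay between the vector values. IRAK2 (4.32 and 4.42 FPKM) lay above them. The downward members were IKBKB and IKBKG, subunits of the IκB kinase, where IKBKB had 9.73 and 10.36 FPKM in vector and 8.61 and 7.58 in DKO.

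Chemokines were a separate list. Among them CXCL1, CXCL2 and CXCL8, of the CXC type, attract neutrophils through CXCR2. Of 6 measured chemokine genes, 3 were separated upward, beside 17.5% of all genes, and these were CXCL1, CXCL2 and CXCL8. CXCL1 and CXCL2 met the count minimum only in DKO, and of all such genes 77 of 205 were separated upward. The 17.5% is thus not a like comparison for these 2 genes. CXCL8, the gene of interleukin-8 (gene ID 3576), had 7.31 FPKM in vector 1, 17.31 in vector 2, 36.45 in DKO 1 and 114.61 in DKO 2. Its log2 fold change of 2.59 carried a SE of 0.61 (edgeR), and the libraries of each group were themselves more than 2-fold apart. With 1 library left out it was 1.55 without DKO 2, 2.10 without vector 1, 3.19 without DKO 1 and 3.35 without vector 2. CXCL2 had 0.98 and 2.06 FPKM in vector and 6.11 and 7.95 in DKO, a gap of 2.97. CXCL1 had 2.21 and 6.52 FPKM in vector and 12.01 and 37.03 in DKO. CXCL1 and CXCL2 are close paralogs whose expected counts were not whole, so that reads may have been divided between them. In all 3 genes vector 2 was above vector 1 and DKO 2 was above DKO 1. The single knockout libraries had 28.52 (MRCKα KO) and 19.61 FPKM (MRCKβ KO) of CXCL8. They had 3.12 and 3.38 FPKM of CXCL2, above both vector values. For CXCL1 they had 5.52 and 6.29 FPKM, between the vector values. CCL5, a chemokine for T cells and monocytes, was on the lower side, with 8.55 and 12.33 FPKM in vector and 6.95 and 7.66 in DKO.

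The κB sites of these genes are shown because CXCL2, ICAM1, TNFAIP3 and CXCL8, which followed EGR1 in the width of the gap, and CXCL1 each carry one. Each stretch is RefSeq sequence of GRCh38.p14, written 5′ to 3′ along the strand of the gene, and the capitals mark a match to GGAANTTCC or GGGANTTCC on either strand. CXCL2 lies at chr4:74099234-74099302 on the minus strand. On the plus strand lie CXCL1 at chr4:73869285-73869353, CXCL8 at chr4:73740448-73740516, ICAM1 at chr19:10270904-10270972 and TNFAIP3 at chr6:137867174-137867242.
CXCL2: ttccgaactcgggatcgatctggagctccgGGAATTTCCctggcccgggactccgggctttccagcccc
CXCL1: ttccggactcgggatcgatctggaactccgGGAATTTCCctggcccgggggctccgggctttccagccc
CXCL8: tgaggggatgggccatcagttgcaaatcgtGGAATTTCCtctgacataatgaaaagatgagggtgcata
ICAM1: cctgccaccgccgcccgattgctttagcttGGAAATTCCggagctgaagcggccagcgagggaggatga
TNFAIP3: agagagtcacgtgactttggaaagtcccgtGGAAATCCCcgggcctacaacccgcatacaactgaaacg
CXCL1, CXCL2 and CXCL8 share the same 9 letters at the match. In the 250 bases before the start, such a match was found for 347 of 9106 genes (3.81%), for 74 of 1605 genes separated upward (4.61%) and for 35 of 1144 genes separated downward (3.06%). Of the 16 upward genes of the NF-κB list with a promoter in the table, 8 held a match. Overlapping members of this list were not counted, so the share has no full comparison within the list. These counts describe letters, not binding.

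Of 21 measured cytokine and TNF ligand or receptor genes, 8 (38.1%) were separated upward and 1 downward, beside 17.5% and 12.4% of all genes. The median log2 ratio was 0.31. CSF2, the gene of GM-CSF, had 2.30 and 5.36 FPKM in vector and 7.77 and 12.52 in DKO. IL15, a growth factor for lymphocytes, had 18.42 and 11.95 FPKM in vector and 25.02 and 33.84 in DKO. PTGS2, the inducible cyclooxygenase, had 2.44 and 3.55 FPKM in vector and 4.57 and 7.17 in DKO. IL1A and IL6 were also separated. IL1A had 0.70 and 1.70 FPKM in vector and 2.10 and 5.09 in DKO, and IL6 had 2.64 and 6.74 FPKM in vector and 8.19 and 8.71 in DKO. For CSF2, IL1A and IL6 the vector libraries were more than 2-fold apart, and these genes met the count minimum only in DKO. Such genes enter the list through the group where they are higher. Of all genes that met the minimum only in DKO, 77 of 205 were separated upward. The 17.5% is thus not a like comparison for them. The downward member was TNFRSF21, a death receptor, from 75.71 and 61.33 FPKM in vector to 60.69 and 50.94 in DKO.

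**Figure D2:**
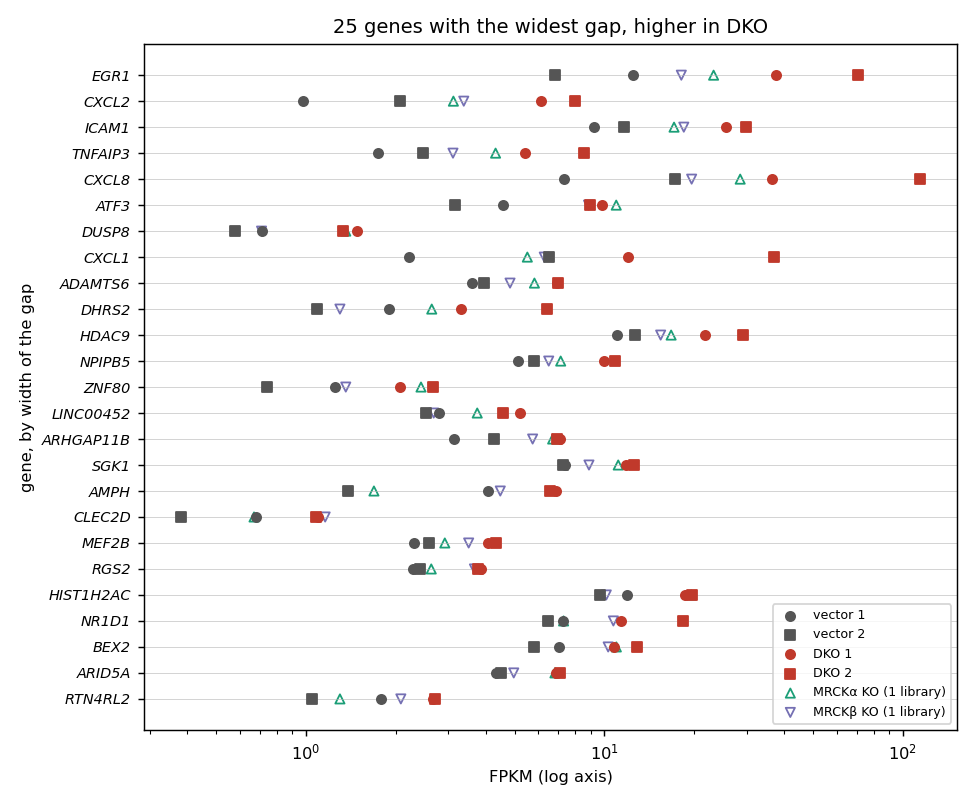
FPKM on a log axis in each of the 6 libraries for the 25 genes with the widest gap on the higher side, ordered by the gap, with 1 mark per library. Both red DKO marks lie to the right of both grey vector marks in each row, from EGR1 with a gap of 3.0 to RTN4RL2 with 1.5, and the open marks of the single knockouts fall on either side.

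Apart from these groups, the genes with the widest upward gaps had varied functions. ADAMTS6, a secreted metalloprotease, had 3.60 and 3.96 FPKM in vector and 6.95 and 6.98 in DKO, with a log2 fold change of 0.83 (SE 0.14, edgeR). HDAC9, a class IIa histone deacetylase that represses MEF2 factors, had 10.99 and 12.66 FPKM in vector and 21.82 and 29.22 in DKO. Its log2 ratio was 1.11 in FPKM and 0.86 in the counts, because FPKM was divided by a transcript length that differed from library to library. DHRS2, a mitochondrial reductase, had 1.90 and 1.09 FPKM in vector and 3.30 and 6.40 in DKO. NR1D1, the clock repressor REV-ERBα, had 7.28 and 6.45 FPKM in vector and 11.34 and 18.39 in DKO. RGS2, which shortens signalling through G proteins, had 2.28 and 2.42 FPKM in vector and 3.87 and 3.78 in DKO. MEF2B, AMPH, BEX2, ARID5A, CLEC2D, RTN4RL2 and ZNF80 were further low to moderate genes of this set. NPIPB5, ARHGAP11B and HIST1H2AC belong to families of near-identical copies, and their counts are uncertain.

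Genes of the integrated stress response and of the unfolded protein response, which cells switch on when amino acids are short or the endoplasmic reticulum is loaded, were the next group. Of 41 measured members 11 (26.8%) were higher and 2 were lower, beside 17.5% and 12.4% of all genes. The median log2 ratio was 0.07. By library, the median log2 ratio to the mean of vector was -0.03 in vector 1 and 0.03 in vector 2. It was 0.12 in DKO 1 and 0.04 in DKO 2, so that DKO 2 lay close to vector 2. DDIT3, the gene of the factor CHOP, had 23.93 and 25.58 FPKM in vector and 36.44 and 47.81 in DKO. SESN2, an inhibitor of mTORC1, had 3.42 and 3.90 FPKM in vector and 5.79 and 4.94 in DKO. TRIB3, a pseudokinase induced by ATF4, had 14.53 and 10.22 FPKM in vector and 22.09 and 16.25 in DKO, and XBP1, a transcription factor of the unfolded protein response, had 34.82 and 36.93 FPKM in vector and 41.65 and 42.24 in DKO. Of 20 genes of aminoacyl-tRNA synthetases, which charge tRNAs and are in part targets of ATF4, 7 (35.0%) were higher and 2 were lower. YARS had 69.01 and 49.72 FPKM in vector and 80.67 and 84.18 in DKO. GADD45A, a DNA damage and stress gene, led the 7 of 27 measured p53 targets and cell cycle inhibitors that were higher, with 21.37 and 31.57 FPKM in vector and 40.73 and 51.61 in DKO, and 2 of the 27 were lower.

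On the lower side, the group that stood furthest from the background was hypoxia and glycolysis. These are genes that HIF-1 raises when oxygen is low, and the enzymes that turn glucose to lactate. Of 42 measured members 16 (38.1%) were separated downward and none upward, beside 12.4% and 17.5% of all genes, and the median log2 ratio was -0.20. ANGPTL4, a secreted inhibitor of lipoprotein lipase, had 3.48 FPKM in vector 1, 4.99 in vector 2, 1.99 in DKO 1 and 0.91 in DKO 2, with a log2 fold change of -1.58 (SE 0.48, edgeR) that was -2.31 without DKO 1 and -1.10 without DKO 2. EGLN3, a prolyl hydroxylase that marks HIF for decay, had 1.88 and 1.94 FPKM in vector and 1.12 and 0.59 in DKO. It lay at the count minimum, with 17 to 50 expected counts per library. ANGPTL4 and EGLN3 met this minimum only in vector.

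The enzymes of the pathway were much more abundant and differed by less. LDHA, the lactate dehydrogenase subunit, had 868.66 and 807.37 FPKM in vector and 696.73 and 621.49 in DKO, with a log2 fold change of -0.37 (SE 0.13, edgeR). PKM, pyruvate kinase, had 858.29 and 907.42 FPKM in vector and 774.41 and 746.80 in DKO. P4HA1, a collagen prolyl hydroxylase, had 29.35 and 30.06 FPKM in vector and 24.46 and 21.10 in DKO. In the MRCKβ KO library, P4HA1 (35.42 FPKM) and LDHA (878.09 FPKM) were above both vector libraries, and in the MRCKα KO library they had 23.20 and 769.32 FPKM. VEGFA, the angiogenic growth factor, had 56.89 and 72.92 FPKM in vector and 47.54 and 51.54 in DKO. Of the 15 downward genes of the list with a promoter in the RefSeq table, 8 held the letters ACGTG, the core bound by HIF. The same letters were found for 29.8% of all 9106 genes with a promoter in the table. Overlapping members of the list were not counted, so the share of the downward genes has no comparison within the list.

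Interferon-stimulated genes, which restrict viruses, were also on the lower side. Of 46 measured members 15 (32.6%) were lower, 4 were higher and 27 overlapped, beside 12.4% lower and 17.5% higher of all genes. The median log2 ratio was -0.10. SAMD9L, an antiviral and growth-restricting gene, had 4.83 and 7.82 FPKM in vector and 3.60 and 3.17 in DKO. PARP14, a mono-ADP-ribosyltransferase, had 9.56 and 9.99 FPKM in vector and 8.10 and 7.26 in DKO. DDX60, a helicase of the RIG-I pathway, had 4.91 and 5.88 FPKM in vector and 4.26 and 2.69 in DKO. TLR3, the receptor for double-stranded RNA, is not on this list. It was among the 25 lower genes with the widest gap, at 5.16 and 6.56 FPKM in vector and 3.01 and 3.81 in DKO. The higher members of the list were led by IRF7, at 3.70 and 3.53 FPKM in vector and 4.28 and 5.93 in DKO. Taken library by library, the list did not part cleanly, since the median log2 ratio to the mean of vector was -0.09 in vector 1, 0.08 in vector 2, -0.04 in DKO 1 and -0.16 in DKO 2. Of 29 antigen presentation genes, 5 were lower, led by ERAP1 (22.89 and 27.90 FPKM in vector, 19.18 and 18.78 in DKO), and 3 were higher.

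The promoter of DDX60 is shown as an example of the interferon-stimulated response element, the site bound by IRF and STAT complexes. It lies on the minus strand at chr4:168318766-168318870 of GRCh38.p14, and the capitals mark 2 matches to its core, GAAA followed after 2 bases of any kind by GAAA.
DDX60: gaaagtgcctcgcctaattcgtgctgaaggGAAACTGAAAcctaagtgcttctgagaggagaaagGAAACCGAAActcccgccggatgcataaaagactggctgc
This core was found on either strand for 7 of the 14 lower members of the list with a promoter in the table, and for 310 of 9106 genes (3.40%). Among all genes separated downward it was found for 38 of 1144 (3.32%). Of the 2 higher members of the list with a promoter in the table, 1 held the core. Overlapping members of the list were not counted, so the share of the lower members has no full comparison within the list. A list of interferon-stimulated genes may hold many such cores through the choice of its genes.

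NRF2 is the factor that raises enzymes against oxidants and electrophiles. Of 29 measured genes on the list of NRF2, antioxidant and iron genes, 9 (31.0%) were lower and 1 was higher. This stands beside 12.4% and 17.5% of all genes, and the median log2 ratio of the list was -0.34. ME1, malic enzyme, had 14.61 and 14.95 FPKM in vector and 10.20 and 9.0 in DKO, with a log2 fold change of -0.66 (SE 0.14, edgeR). AKR1C3, an aldo-keto reductase, had 24.20 and 29.75 FPKM in vector and 17.20 and 12.13 in DKO. AKR1C1, its near-identical relative, had 7.83 and 6.60 FPKM in vector and 5.78 and 2.03 in DKO. The only higher member was KEAP1, the adaptor that targets NRF2 for decay, with 26.77 and 19.98 FPKM in vector and 29.43 and 32.96 in DKO. The vector libraries differed over this list, with a median log2 ratio to their mean of -0.25 in vector 1 and 0.22 in vector 2, against -0.32 in DKO 1 and -0.21 in DKO 2. Vector 1 thus lay with the DKO libraries rather than with vector 2 in the median of the list. The vector libraries also differed in the NF-κB list, with medians of -0.12 and 0.11, and in the hypoxia and glycolysis list, with 0.09 and -0.09, and in both lists vector 2 lay nearer to DKO 1 (0.17 and -0.14) than to vector 1. For immediate early genes the vector medians were 0.04 and -0.04.

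Collagens, laminins and their partners form the matrix that tumour cells pull on. Of 38 measured matrix proteins, 10 (26.3%) were lower and 3 higher, beside 12.4% and 17.5% of all genes. COL5A1, a fibrillar collagen chain, had 9.98 and 14.79 FPKM in vector and 7.29 and 6.31 in DKO, with a log2 fold change of -0.88 (SE 0.21, edgeR). COL6A2 had 18.18 and 20.75 FPKM in vector and 14.22 and 15.26 in DKO. Of 32 matrix proteases and inhibitors, 8 were lower and 3 higher. TIMP4, an inhibitor of metalloproteases, had 4.48 and 6.30 FPKM in vector and 2.37 and 2.53 in DKO, with a gap of 1.77. ADAM8, a membrane protease, had 5.98 and 6.51 FPKM in vector and 4.84 and 3.09 in DKO.

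Of 36 EGFR ligands and growth factor receptors, 8 (22.2%) were lower and 2 higher, beside 12.4% and 17.5% of all genes. EREG, the EGFR ligand epiregulin, had 4.95 and 4.55 FPKM in vector and 3.42 and 2.75 in DKO, whereas the MRCKβ KO library had 6.42 FPKM. ERBB3 was lower in FPKM, with 2.85 and 2.37 in vector and 1.95 and 1.69 in DKO, but its counts gave a log2 fold change of 0.14 (SE 0.35, edgeR), so its direction depended on the transcript length used. Of 33 WNT and Notch genes, 4 were lower and 5 higher. WNT7B, a secreted WNT ligand, had 4.21 and 5.17 FPKM in vector and 2.04 and 2.33 in DKO, with a gap of 1.81. GLI2, the transcription factor of Hedgehog signalling, had the widest gap on the lower side, 1.91. It had 1.68 and 1.64 FPKM in vector, 0.84 and 0.86 in DKO, and 0.79 and 1.40 in MRCKα KO and MRCKβ KO.

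**Figure D3:**
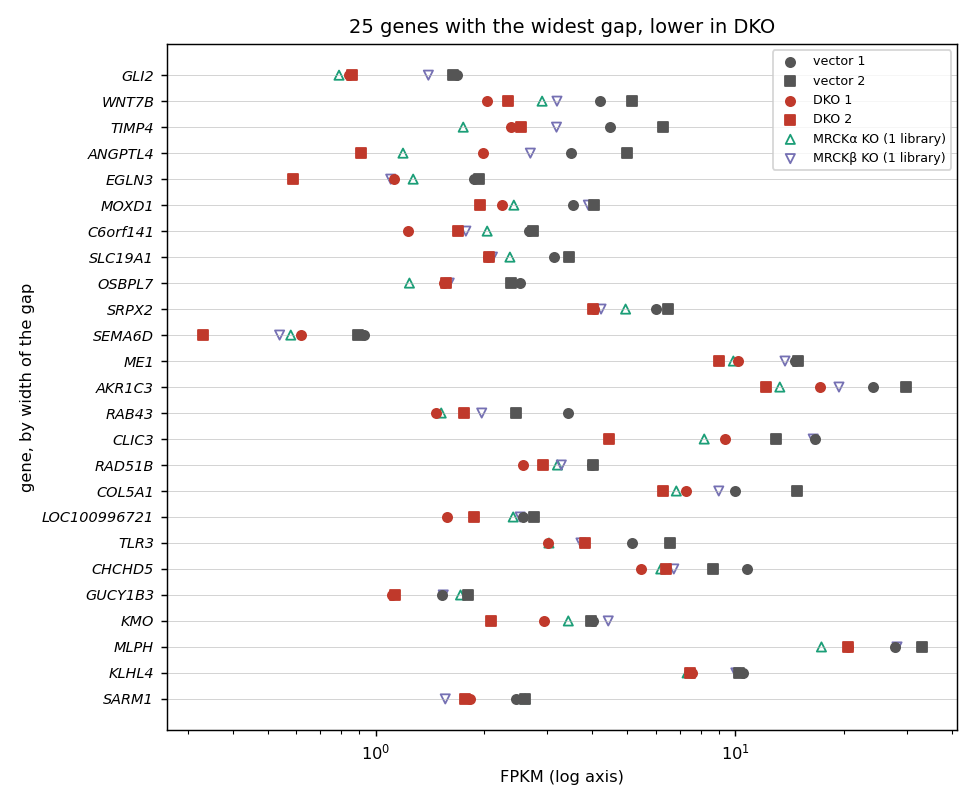
FPKM on a log axis in each of the 6 libraries for the 25 genes with the widest gap on the lower side, ordered by the gap, with 1 mark per library. Both red DKO marks lie to the left of both grey vector marks in each row, and the gaps run from 1.91 for GLI2 to 1.34 for SARM1.

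Among the other 25 widest lower genes were MOXD1, a monooxygenase, with 3.54 and 4.04 FPKM in vector and 2.24 and 1.95 in DKO, and the folate carrier SLC19A1, with 3.13 and 3.45 FPKM in vector and 2.05 and 2.07 in DKO. MLPH, which links melanosomes and other organelles to myosin Va, had 27.85 and 32.93 FPKM in vector and 20.61 and 20.51 in DKO. SRPX2, a secreted ligand of the urokinase receptor, had 6.01 and 6.49 FPKM in vector and 4.04 and 4.02 in DKO. CLIC3, a chloride channel protein linked to integrin recycling, had 16.66 and 12.98 FPKM in vector and 9.34 and 4.46 in DKO, whereas the MRCKβ KO library had 16.46 FPKM.

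Cytoskeletal, adhesion and tension-related lists are given beside the 17.5% and 12.4% of all genes. Of 31 measured contractile genes driven by SRF and MRTF, 4 were higher and 3 lower, and their median log2 ratio was -0.01. TPM4, a tropomyosin of stress fibres, had 612.92 and 485.37 FPKM in vector and 630.97 and 668.01 in DKO, and FLNA, filamin A, had 341.31 and 375.29 FPKM in vector and 316.24 and 334.42 in DKO. Of 54 actin nucleators and regulators, 5 were higher and 6 lower, with WASF3 at 5.69 and 4.55 FPKM in vector and 8.30 and 6.72 in DKO, and the formin FHOD1 at 25.66 and 30.61 FPKM in vector and 24.47 and 19.57 in DKO. Of 32 integrin and focal adhesion genes, 2 (6.25%) were higher and 6 (18.8%) lower, with ITGB4 at 7.15 and 3.55 FPKM in vector and 2.94 and 2.20 in DKO. YAP and TEAD targets, which respond to tension, had 5 higher and 3 lower of 32.

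The other functional groups are given by their counts, to be read beside the 17.5% higher and 12.4% lower of all genes. Of 25 epithelial and mesenchymal genes 3 were higher and 5 lower, with the calcium-binding S100A6 at 2253.37 and 1998.26 FPKM in vector and 1633.22 and 1496.01 in DKO. Of 38 genes of TGF-β, activin and BMP signalling 5 were higher and 6 lower, with the activin subunit INHBA at 3.67 and 5.60 FPKM in vector and 7.48 and 7.34 in DKO. Genes of G1/S and DNA replication had 6 higher and 8 lower of 51, and genes of mitosis and cytokinesis 5 higher and 5 lower of 57. PRIM1, the catalytic subunit of primase, had 22.48 and 24.27 FPKM in vector and 17.92 and 17.05 in DKO. Cholesterol and fatty acid synthesis had 1 separated gene of 39, FADS1, on the lower side. Oxidative phosphorylation had 8 higher and 17 lower (22.4%) of 76, with a median log2 ratio of -0.00. Mitochondrial ribosomal proteins had 16 higher (20.8%) and 9 lower (11.7%) of 77, near the shares of all genes. Cytosolic ribosomal proteins had 7 higher and 5 lower of 84. Heat shock and chaperone genes had 2 higher and 2 lower of 27, proteasome genes 3 higher and 5 lower of 37, splicing factors 8 higher and 6 lower of 51, and lysosome and autophagy genes 6 higher and 6 lower of 36.

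Zinc finger genes with ZNF symbols, many of which repress transposable elements, had 77 higher (20.2%) and 34 lower (8.90%) of 382 measured members. This and the lists that follow stand beside 17.5% and 12.4% of all genes. Solute carriers lay near these shares, with 29 higher (16.0%) and 19 lower (10.5%) of 181. G protein-coupled receptors had 6 higher and 3 lower of 20, with PTGER4, a prostaglandin E2 receptor, at 4.92 and 4.47 FPKM in vector and 6.73 and 6.83 in DKO. Apoptosis regulators had 5 higher and 1 lower of 34. Readthrough genes, which share exons with adjacent genes, had 4 higher and 2 lower of 24. The small lists were replication-type histones with 2 higher of 5, long non-coding RNAs with 2 higher of 3, metallothioneins with none separated of 5, and cancer-testis antigens with 1 lower of 11.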

How the data were processed

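RNA of the 6 libraries was sequenced by BGI as single-end reads of 50 bases. The submitters' processing notes list HISAT, Bowtie2 and RSEM, without versions or roles, and the build GRCh38.p11. The expected counts the authors deposited are estimates of the reads of each gene, unscaled and not always whole. The deposited FPKM values are rounded to 2 decimals and use a transcript length that can differ between libraries.

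Rounded expected counts were fitted with edgeR 4.0.16 in R 4.3.3 (filterByExpr, TMM, quasi-likelihood test, Benjamini-Hochberg adjustment over 13123 genes), after tests on simulated data. The SE of a log2 fold change is its size divided by the square root of F. DESeq2 1.42.0, limma 3.58.1 on log2(FPKM + 0.1) or with 1 added (mean FPKM of at least 0.5), other scalings and filters, a replicate block, all 6 libraries and each library left out in turn were alternatives. Each p-value measures only the spread between these libraries, and low genes have the largest counting error.

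The comparison, the 43 gene lists and the rule for named genes were chosen with earlier results of these data known. The rule took both targeted genes, the MRCK pathway list, the 25 widest gaps per direction, up to 5 separated members with the widest gaps per list and direction, and genes called by 2 or more fits. Other genes were named after their values were known. Promoters, the 250 bases before the RefSeq start, were matched by gene ID. The result of 1 list and of some genes is not reported here.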

Additional observations from a re-analysis of the deposited data

How the results depend on the processing

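No gene passed an adjusted p of 0.05 with RLE, upper-quartile or library-size scaling, without the filter on low counts, with 50 counts in a group, with limma at either pseudocount, or with all 6 libraries in the fit, where 262 to 359 genes had an unadjusted p under 0.05. DESeq2's Wald test called 4 genes (ICAM1, TNFAIP3 and the readthrough genes RPS10-NUDT3 and TNFAIP8L2-SCNM1). The replicate number was tried as a block, although no source ties it to a batch and the deviations of the libraries numbered 1 correlated by 0.30 over 13123 genes. With this replicate block 5 genes were called (CXCL1, CXCL8, ICAM1, IL24 and TNFAIP3), all higher in DKO, and 796 genes had an unadjusted p under 0.05 in place of 313. Leaving out 1 library called between 0 and 5 genes, with 5 without DKO 1 (CXCL8, EGR1, EMC10, MAGEB2 and SERF1A) and 1 without vector 1 (SPANXA1), where the lone library of a group is assumed to vary like the other group.

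TMM-scaled counts separated 1639 genes upward and 1577 downward in place of 1920 and 1356, which moves the upward share from 58.6% to 51.0%. Separation on both FPKM and TMM-scaled counts, chosen after seeing the data, left 1528 and 1240 genes. A minimum of 10 or 200 counts changed the numbers by less than 1.5 times, whereas a gap of at least 25% left 106 and 61 genes and a gap of at least 1.5-fold left 25 and 9. Without 1 library, where overlap is easier to avoid, 3438 to 4323 genes lay upward and 2754 to 3749 downward. The 2-fold rule gave 11 higher and 3 lower genes with the minimum of 50 counts. It gave 7 and 0 with a pseudocount of 1 FPKM, 24 and 18 without the replicate filter, 65 and 39 with a minimum of 10 counts, and 28 to 68 and 10 to 52 with 1 library left out.

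Of 1071 alternative log2 fold changes of 119 named genes, 23 had the other sign. These were MYH9 with library-size scaling (0.0069), RAC1 with DESeq2 (-0.00075) and with all 6 libraries (-0.00097), and otherwise values with 1 library left out. Over the 4 libraries left out in turn, the values ran from -0.46 to 0.21 for CDC42BPA, -0.13 to 0.47 for ERBB3, -0.0059 to 0.079 for EZR, -0.030 to 0.67 for IRF7, -0.11 to 0.17 for MYH10, -0.084 to 0.046 for MYH9, -0.72 to 0.17 for MYL12A, -0.19 to 0.24 for MYL9, -0.33 to 0.20 for PPP1R12A, -0.0086 to 0.014 for RAC1, -0.065 to 0.15 for RHOA and -0.22 to 0.35 for ROCK1. Of 172 alternative counts of list members, 152 were within 1.5 times the reported count. The cause of these changes was not tested.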

Other observations

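Some genes on the lower side had a wide ratio of means and a narrow gap, with vector 2 alone high. These genes were picked with their values in view. TRIM16L, a relative of the E3 ligase gene TRIM16, had 6.90 FPKM in vector 1, 25.18 in vector 2, 6.80 in DKO 1 and 5.32 in DKO 2, with a gap of 1.01. PIR, which encodes the iron-binding protein pirin, had 5.52, 13.50, 5.50 and 3.49 FPKM in the same order. The uncharacterised LOC105374811 had 3.02 and 13.91 FPKM in vector and 2.50 and 2.04 in DKO. PIR is on the NRF2 list, on which vector 1 and vector 2 differed in the median. On the higher side, some genes had a narrow gap and 1 library far from the rest. RAP1GAP2, which turns off the GTPase RAP1, had 3.59 and 2.31 FPKM in vector, 3.76 in DKO 1 and 8.51 in DKO 2. TENM2, a cell adhesion gene, had 7.35 and 1.97 FPKM in vector and 8.97 and 13.61 in DKO.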
